A study of Mus musculus with 12 samples.

Results

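The genes described are those of 3 enzyme families that prepare drugs, steroids, bilirubin and lipids for disposal or storage in the liver: the UDP-glucuronosyltransferases (UGTs), the sulfotransferases (SULTs) and the carboxylesterases (CES). Members were the protein-coding genes of the count table whose symbol starts with Ugt1a, Ugt2a, Ugt2b, Ugt3a, Sult, Ces1, Ces2 or Ces3, together with Ugdh, Papss1 and Papss2, which make the cofactors. They numbered 62 of 50686 genes: 9 Ugt1a, 3 Ugt2a, 7 Ugt2b, 2 Ugt3a, 21 Sult, 8 Ces1, 7 Ces2 and 2 Ces3 genes and the 3 cofactor genes. A further 7 genes with such symbols were left out because they are not annotated as protein-coding.

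Livers came from FVB/N mice aged 6 to 8 weeks, and the mRNA of the ground tissue was captured and sequenced. Mice received siRNA packed in lipid nanoparticles through the tail vein, with 1 injection per 5 days at a dose of 0.5 mg/kg, over 9 or 13 days. The groups were Eif3m siRNA at day 9, control siRNA at day 9, Eif3m siRNA at day 13 and control siRNA at day 13, with 3 libraries each, and the control was a scrambled luciferase sequence. Neither the cells that took up the siRNA, nor the sex of the mice, nor a separate animal for each library is stated in the labels, so the spread behind each p-value is that among these libraries and may be technical.

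UGTs attach glucuronic acid from UDP-glucuronate to bilirubin, steroids, bile acids and drugs. SULTs attach sulfate from PAPS (3′-phosphoadenosine 5′-phosphosulfate) to phenols, steroids and amines, and both reactions make products that transporters can carry into bile or blood. Carboxylesterases cleave esters, among them drug esters and the triglycerides, diglycerides and cholesteryl esters of the hepatocyte. In mouse liver many of these genes are known to respond to the nuclear receptors CAR and PXR, and several members of each family differ between the sexes.

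The targeted transcript was lower in every Eif3m siRNA library than in any control library. Eif3m, a subunit of the translation initiation factor eIF3, had 4.88, 4.78 and 4.71 CPM (counts scaled to the size of the library) in the day 9 Eif3m siRNA livers, against 45.1, 44.1 and 45.4 CPM in the day 9 control livers. At day 13 Eif3m had 2.52, 2.41 and 2.19 CPM in the Eif3m siRNA livers, against 39.8, 38.0 and 31.2 CPM in the control livers. By exact permutation (two-sided) p was 0.1 on both days, and 3 libraries against 3 can give no smaller value. Totals were 38783564 to 54538581 counts per library at day 9 and 7650269 to 9630027 at day 13, and the days separated along the first principal component (40.1% of the variance), so each effect was taken within its day. Library names of the days belong to different series, so day, series and depth cannot be told apart. Along the third component (9.44%) day 13 Eif3m siRNA replicate 2 lay at −36.9 and day 13 control replicate 3 at −52.0, apart from the other libraries of their groups at 4.68 to 37.6 and at 15.3 to 18.0. The median SD of log2 CPM within a group was 0.127 (Eif3m siRNA) and 0.144 (control) at day 9, and 0.247 (Eif3m siRNA) and 0.268 (control) at day 13. All 12 libraries had a female pattern, with Xist, the transcript of the inactive X chromosome, at 113 to 418 CPM and the Y-linked Ddx3y, Eif2s3y and Uty at 0.

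Promoters are shown for 4 starts of the Ugt1a locus and for a pair of Ugt2b neighbours, chosen because calls differed within each set. A part of the promoter letters in those differences was not tested. Ugt1a1 and Ugt1a5 fell at both days, whereas Ugt1a9 and Ugt1a6a, read from other starts of the same locus, were called lower at neither, and Ugt2b37 and Ugt2b5 were called in opposite directions at day 13. RefSeq windows of 250 bases before to 50 bases after the start (GRCm38.p6, the C57BL/6J reference and not the FVB/N strain) were matched for 52 of 62 members. Capitals mark 2 motifs searched on both strands, the HNF1 core GTTAAT, which reads ATTAAC on the other strand, and the nuclear receptor core AGGTCA, which reads TGACCT on the other strand. The Ugt1a windows lie on the plus strand of chr1 at chr1:88211709-88212008 (Ugt1a1), chr1:88165762-88166061 (Ugt1a5), chr1:88134559-88134858 (Ugt1a6a) and chr1:88070529-88070828 (Ugt1a9). The Ugt2b windows lie on the minus strand at chr5:87254739-87255038 (Ugt2b37) and chr5:87140291-87140590 (Ugt2b5).
Ugt1a1: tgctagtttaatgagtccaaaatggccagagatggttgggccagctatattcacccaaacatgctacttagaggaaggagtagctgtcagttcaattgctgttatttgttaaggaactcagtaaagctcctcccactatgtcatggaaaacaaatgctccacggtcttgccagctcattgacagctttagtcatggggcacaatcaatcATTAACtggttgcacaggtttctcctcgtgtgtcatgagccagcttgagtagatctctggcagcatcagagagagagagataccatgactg
Ugt1a5: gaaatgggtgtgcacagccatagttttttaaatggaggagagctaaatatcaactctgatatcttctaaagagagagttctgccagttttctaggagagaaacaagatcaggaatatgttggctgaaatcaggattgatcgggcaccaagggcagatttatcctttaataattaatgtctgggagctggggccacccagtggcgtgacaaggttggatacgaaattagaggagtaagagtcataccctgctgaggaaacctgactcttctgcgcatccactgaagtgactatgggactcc
Ugt1a6a: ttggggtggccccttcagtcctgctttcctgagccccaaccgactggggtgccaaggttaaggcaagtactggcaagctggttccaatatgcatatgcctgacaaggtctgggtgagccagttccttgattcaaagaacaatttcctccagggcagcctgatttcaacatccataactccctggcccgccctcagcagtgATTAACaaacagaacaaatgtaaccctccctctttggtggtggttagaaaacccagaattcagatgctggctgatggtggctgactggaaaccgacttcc
Ugt1a9: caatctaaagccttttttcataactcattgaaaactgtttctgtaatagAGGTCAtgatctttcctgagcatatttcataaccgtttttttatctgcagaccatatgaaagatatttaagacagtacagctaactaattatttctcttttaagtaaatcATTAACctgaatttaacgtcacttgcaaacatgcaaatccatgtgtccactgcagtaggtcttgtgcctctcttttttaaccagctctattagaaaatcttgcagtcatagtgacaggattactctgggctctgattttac
Ugt2b37: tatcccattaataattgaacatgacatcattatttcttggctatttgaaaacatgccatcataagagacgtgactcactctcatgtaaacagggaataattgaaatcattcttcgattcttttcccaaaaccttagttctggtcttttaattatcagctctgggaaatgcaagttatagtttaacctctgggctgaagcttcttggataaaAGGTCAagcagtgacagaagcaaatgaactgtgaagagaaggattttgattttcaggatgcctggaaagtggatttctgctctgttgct
Ugt2b5: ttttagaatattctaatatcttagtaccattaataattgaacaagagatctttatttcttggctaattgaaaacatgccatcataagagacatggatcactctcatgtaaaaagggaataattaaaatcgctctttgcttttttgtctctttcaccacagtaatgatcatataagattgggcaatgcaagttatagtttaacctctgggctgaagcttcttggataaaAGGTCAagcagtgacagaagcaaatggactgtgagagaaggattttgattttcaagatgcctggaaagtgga

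The HNF1 core was found in 14 of the 52 members with a window and in 7.13% of 32544 promoter windows of all genes. The nuclear receptor core was found in 13 of the 52 members and in 16.2% of all windows. Member figures count genes with a hit in any of their 58 windows, and the others count single distinct windows, so the units differ. Neighbouring copies among the members are not independent hits. Ugt1a1 held the HNF1 core on the minus strand at −41 to −36 from its start, Ugt1a6a at −50 to −45 and Ugt1a9 at −91 to −86, with AGGTCA on the plus strand at −201 to −196, whereas the Ugt1a5 window held neither set of letters. Ugt1a1 and Ugt1a5, both called lower at both days, were identical at 42.9% of the positions of an alignment of these windows, gaps counted, and Ugt1a1 and Ugt1a6a, called in opposite directions at day 13, at 43.5%. Ugt2b37 and Ugt2b5 were identical at 76.2%, gaps counted, with 247 identities, 29 mismatches and 48 gap positions. Both held AGGTCA on the plus strand, at −39 to −34 and −22 to −17, within a stretch of letters that both windows share. A match is a description of letters in a window and not a binding site.

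Most members that changed were lower in Eif3m siRNA livers, and the falls lay mostly in the Ces1, Ces2, Sult1, Sult3, Ugt1a and Ugt2a genes. The day 13 rises were Ces2g, Ces3a, Sult2a5, Ugt1a6a, Ugt2b5, Ugt2b35 and Ugt2b36. Of these day 13 calls, those of Ces2g, Ces3a, Ugt1a6a and Ugt2b35 held in every alternative setting, and the others did not. Of the 62 members, 50 were abundant enough to be tested, 45 of them above the abundance filter of 0.413 CPM in all 12 libraries. A gene was called at an adjusted p under 0.05 in edgeR's quasi-likelihood test over 14248 genes, and fold changes are log2 of Eif3m siRNA over control. In whole liver a lower level in each cell and fewer cells with the transcript cannot be told apart. At day 9, 16 members were called, beside 12.8% of all genes tested. Of these 1 was higher, where 5.94% of all genes were, and 15 were lower, where 6.84% of all genes were. At day 13, 27 members were called, beside 23.7% of all genes, with 7 higher, where 12.8% of all genes were, and 20 lower, where 10.9% of all genes were. With upper-quartile factors the day 13 split of the members was 4 higher and 22 lower, and that of all genes 1574 higher and 1808 lower, against 1824 higher and 1553 lower as scaled here. The median fold change of the tested members was −0.36 at day 9 and −0.37 at day 13, and that of all genes tested was 0.0147 and 0.

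Called falls overlapped between the days: 12 members were lower at both, which is 80.0% of those lower at day 9 and 60.0% of those lower at day 13. Over all genes tested 588 were lower at both, which is 60.3% of those lower at day 9 and 37.9% of those lower at day 13. Ugdh, Papss2 and Sult1b1 were called lower at day 9 and not at day 13. Ces2g was called higher at both days. The day 13 effect differed from the day 9 effect for 3 members, Ces2g, Sult3a1 and Ugt1a6a, beside 2.55% of all genes, with 2 of them higher at day 13 (0.898% of all genes) and 1 lower (1.66% of all genes). At day 9 all Eif3m siRNA libraries lay above all controls for 5 of the 50 tested members (against 3206 of all 14248 genes tested) and below them for 24 (against 2993 of all genes). At day 13 they lay above all controls for 5 (against 2456 of all genes) and below them for 22 (against 2279 of all genes), beside 12.8% and 23.7% of all genes called at day 9 and day 13. The number called at day 9 was 9 without control replicate 2, 9 without control replicate 3 and 10 without Eif3m siRNA replicate 2 of that day. Each of these fits tested 48 members. They called 1145 of 12915, 944 of 12916 and 884 of 12894 genes, so calls were lost over all genes too. Without both day 13 libraries that lay apart on the third component, 24 of 52 tested members were called at day 9 (against 3050 of all 15591 genes then tested), 22 at day 13 (against 3118 of all genes) and 2 between the days (against 518 of all genes). Besides leaving out each library in turn, other settings changed the scaling, the filter, the test, the samples fitted, the replicate term or the depth.

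**Figure D1:**
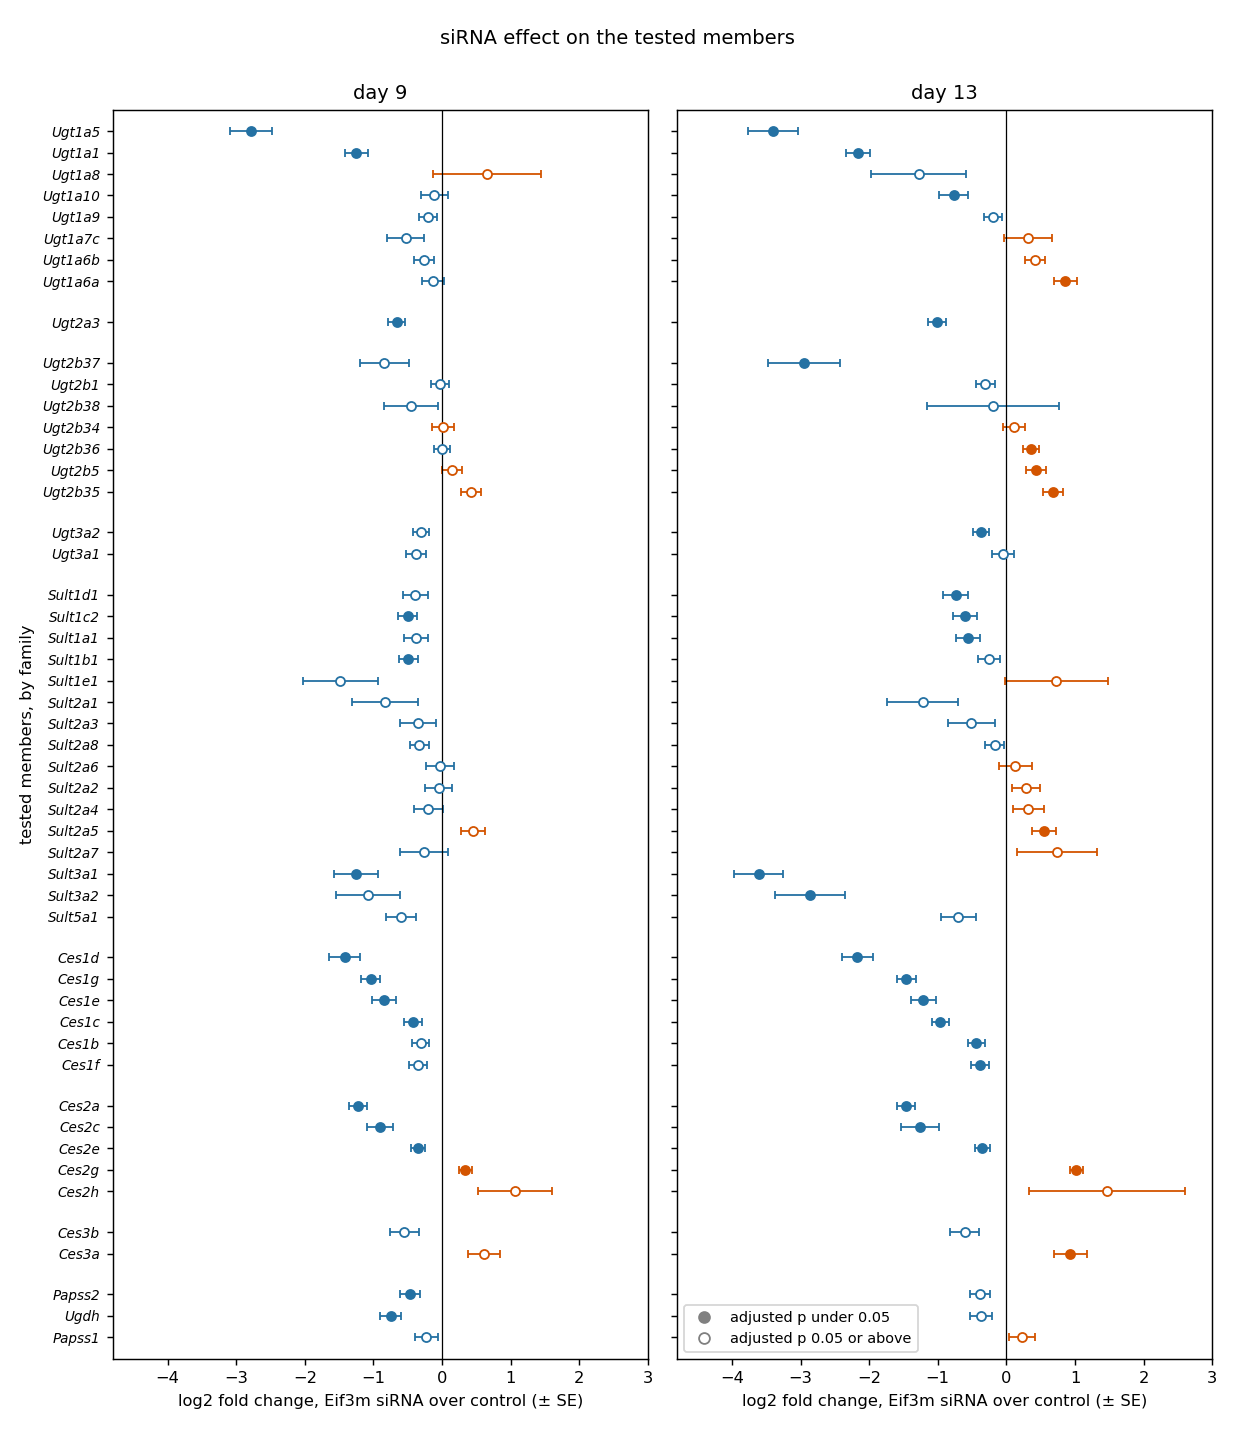
Log2 fold change of Eif3m siRNA over control (x axis, bars are the SE) for the 50 tested members at day 9 (left) and day 13 (right), grouped by family, with filled points for adjusted p under 0.05 and orange for values above 0. The lowest points are Ugt1a5 at day 9 (−2.78) and Sult3a1 at day 13 (−3.61), and the Ces1 genes lie left of 0 at both days.

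The Ugt1a locus on chromosome 1 joins 1 of several alternative first exons to exons that all its transcripts share, so each Ugt1a enzyme has its own substrate-binding part and a common part that binds UDP-glucuronate. Of 8 tested Ugt1a genes, 2 fell at day 9 and none rose, while at day 13, 3 fell and 1 rose (medians −0.23 and −0.48). Ugt1a1 and Ugt1a5, with the 2 tested first exons nearest to the shared exons, fell at both days. The locus as a whole summed to 837 to 1053 CPM in Eif3m siRNA livers and 1457 to 1547 CPM in control livers at day 9 (64.4% of the control mean). The day 13 sum was 757 to 863 CPM in Eif3m siRNA livers and 1358 to 1538 CPM in control livers (56.5% of the control mean). Without Ugt1a1 and Ugt1a5 the sum was 86.9% of control at day 9 and 95.7% of control at day 13.

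Ugt1a1 (chromosome 1, 88211959 to 88218997, 5 exons) encodes the enzyme that glucuronidates bilirubin. Its level at day 9 was 318, 206 and 287 CPM in Eif3m siRNA livers, against 617, 647 and 663 CPM in control livers (log2 fold change −1.25, SE 0.169, adjusted p = 0.000565). At day 13 the Eif3m siRNA livers had 191, 162 and 127 CPM and the control livers 795, 657 and 693 CPM (log2 fold change −2.16, SE 0.175, adjusted p = 4.15e-06). All Eif3m siRNA libraries lay below all controls of their day, at 42.1% of the control mean at day 9 and 22.4% at day 13, and the fold changes of the days differed by −0.91 without passing the threshold (adjusted p = 0.0582). Ugt1a1 made up 27.9% ± 3.65 of the summed Ugt1a counts in Eif3m siRNA livers and 43.0% ± 2.18 in control livers at day 9. Its day 13 share was 19.6% ± 3.28 in Eif3m siRNA livers and 49.5% ± 3.21 in control livers (SD, n = 3 each).

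Ugt1a5 (88166012 to 88218997) fell furthest of the locus, to 10.5, 6.88 and 11.8 CPM in Eif3m siRNA livers at day 9, against 70.8, 46.1 and 84.1 CPM in control livers (log2 fold change −2.78, SE 0.305, adjusted p = 0.000302). On day 13 it had 5.31, 3.8 and 4.82 CPM in Eif3m siRNA livers and 63.1, 29.1 and 53.2 CPM in control livers (log2 fold change −3.40, SE 0.359, adjusted p = 6.35e-05). The groups were apart at both days, and the counts behind the day 13 values were 38 to 44 in Eif3m siRNA libraries and 204 to 491 in control libraries. Ugt1a2, whose first exon lies between those of Ugt1a5 and Ugt1a1, was not tested, with at most 0.559 CPM in any library.

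Ugt1a9, a UGT of bulky phenols, was not called at either day. Its mean level was above that of Ugt1a1 in Eif3m siRNA livers and below it in control livers at both days. It had 498, 452 and 572 CPM in Eif3m siRNA livers and 615, 637 and 503 CPM in control livers at day 9. Its day 13 levels were 492, 529 and 446 CPM in Eif3m siRNA livers and 559, 619.9 and 503 CPM in control livers at day 13. The groups overlapped at both days, and the 95% intervals of the fold change were −0.49 to 0.08 at day 9 and −0.48 to 0.09 at day 13. Its share of the summed Ugt1a counts was 52.7% ± 2.51 in Eif3m siRNA livers and 39.1% ± 3.93 in control livers at day 9. That share at day 13 was 60.0% ± 1.26 in Eif3m siRNA livers and 38.9% ± 3.79 in control livers (SD, n = 3 each).

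Ugt1a6a, 1 of 2 mouse Ugt1a6 genes for planar phenols, was called higher at day 13 and not at day 9. It had 84.7, 88.6 and 94.0 CPM in Eif3m siRNA livers and 84.9, 105 and 103 CPM in control livers at day 9, where the groups overlapped (log2 fold change −0.13, SE 0.155, adjusted p = 0.637). At day 13 the values were 60.6, 74.0 and 75.1 CPM in Eif3m siRNA livers, all above the 44.4, 27.8 and 43.2 CPM of the control livers (log2 fold change 0.86, SE 0.163, adjusted p = 0.00188). Its day 13 effect exceeded its day 9 effect by 0.99 (adjusted p = 0.0385). Its means were 89.1 CPM in Eif3m siRNA livers and 97.5 CPM in control livers at day 9, and 69.9 CPM in Eif3m siRNA livers and 38.5 CPM in control livers at day 13. This difference between the days was lost without day 9 Eif3m siRNA replicate 1, 2 or 3, day 9 control replicate 2 or 3, or day 13 Eif3m siRNA replicate 3 (adjusted p from 0.0595 to 0.108). Ugt1a6b, its neighbour, had log2 fold changes of −0.26 (SE 0.142) at day 9 and 0.42 (SE 0.147) at day 13 and passed at neither (adjusted p = 0.256 and 0.0515).

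Ugt1a10 lies furthest from the shared exons. At day 9 it had 7.93, 5.9 and 6.69 CPM in Eif3m siRNA livers and 7.25, 7.48 and 7.43 CPM in control livers, and the groups overlapped (log2 fold change −0.11, adjusted p = 0.761). Day 13 values were 7.83, 11.9 and 10.6 CPM in Eif3m siRNA livers, below the 16.7, 23.4 and 12.6 CPM of control livers (log2 fold change −0.77, SE 0.216, adjusted p = 0.0188). That call was lost without day 13 control replicate 2 (adjusted p = 0.0954), without day 13 Eif3m siRNA replicate 1 (adjusted p = 0.0697) and in 1 of the 9 other settings (adjusted p = 0.0563). Ugt1a7c and Ugt1a8 averaged under 5 CPM and were not called. Since the Ugt1a genes share exons, only 19.8% to 47.9% of the 50-base windows of their annotated transcripts occur in no other gene, and 19.8% for Ugt1a1. The estimated counts of single Ugt1a genes are therefore less certain than their sum. Gm20528, on the other strand, also overlaps the exons, and without a stated strand setting its reads cannot be told apart from theirs.

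**Figure D2:**
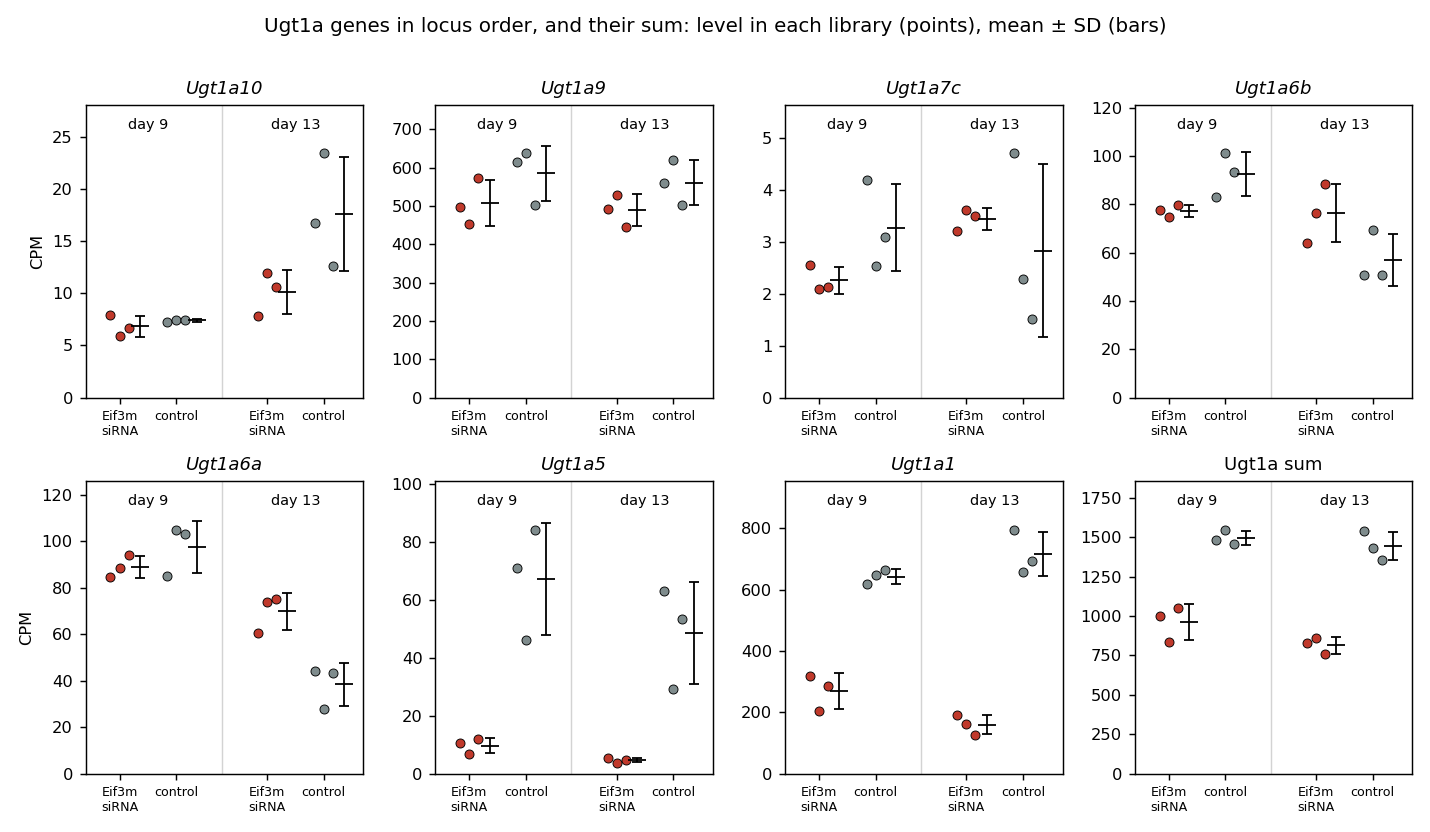
CPM (y axis, from 0) of 7 Ugt1a genes, in the order of their first exons along the locus, and of the summed Ugt1a genes in each library of the 4 groups, with Eif3m siRNA left of control within each day; points are libraries and bars the mean ± SD. Ugt1a5, Ugt1a1 and the sum are below every control at both days, Ugt1a9 overlaps at both days and Ugt1a6a is above every control at day 13.

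The Ugt2b genes glucuronidate steroids, bile acids and drugs. None of 7 was called at day 9 by edgeR, where 2 had an unadjusted p under 0.05 and DESeq2 and limma called 1 each. At day 13, 3 rose and 1 fell (medians 0.00 and 0.11). The family summed to 2737 ± 216 CPM in Eif3m siRNA livers and 2615 ± 193 CPM in control livers at day 9. At day 13 the sums were 2011 ± 209.6 CPM in Eif3m siRNA livers and 1709.9 ± 174 CPM in control livers (SD, n = 3 each). These genes lie in a cluster on chromosome 5 together with Ugt2a3.

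Ugt2b5 had the highest mean level of the cluster. At day 9 it had 888, 814 and 972 CPM in Eif3m siRNA livers and 757, 891 and 782 CPM in control livers, with overlap and no call (log2 fold change 0.14, adjusted p = 0.581). By day 13 it stood at 566, 629.6 and 772 CPM in Eif3m siRNA livers and 444, 572 and 445 CPM in control livers, which overlapped although the test was passed (log2 fold change 0.43, SE 0.144, adjusted p = 0.0444). The day 13 call was lost without any 1 of the 6 day 9 libraries, without day 13 control replicate 1 or 3 and without day 13 Eif3m siRNA replicate 2 or 3, with adjusted p from 0.0505 to 0.23. It was also lost in 4 of the 9 other settings (adjusted p from 0.0728 to 0.133), among them leaving out both day 13 libraries that lay apart (adjusted p = 0.133). Of the 50-base windows of Ugt2b5, 58.3% were unique to it and 34.8% were shared with Ugt2b38, which had at most 1.29 CPM in any library.

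Ugt2b35 was higher in all Eif3m siRNA libraries than in any control at both days. It had 229, 263 and 258 CPM in Eif3m siRNA livers and 175, 209.7 and 175 CPM in control livers at day 9, which did not pass the test (log2 fold change 0.42, SE 0.146, adjusted p = 0.0731). Its day 13 values were 153, 229 and 209 CPM in Eif3m siRNA livers and 107, 134 and 126 CPM in control livers (log2 fold change 0.68, SE 0.148, adjusted p = 0.0044). Ugt2b36 had 592, 571 and 694 CPM in Eif3m siRNA livers and 619, 651 and 586 CPM in control livers at day 9, with a log2 fold change of 0.00 (adjusted p = 0.999). At day 13 Ugt2b36 had 427, 463 and 493 CPM in Eif3m siRNA livers, above the 353, 399 and 328 CPM of control livers (log2 fold change 0.36, SE 0.116, adjusted p = 0.039). The Ugt2b36 call was lost without day 13 control replicate 1 or 3, day 13 Eif3m siRNA replicate 2 or 3 or day 9 Eif3m siRNA replicate 1, with adjusted p from 0.0615 to 0.165, and in 5 of the 9 other settings (adjusted p from 0.0773 to 0.162), among them leaving out both libraries that lay apart (adjusted p = 0.162). The 3 rises of the cluster were therefore 1 call that held in every alternative, Ugt2b35, and 2 that did not.

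Ugt2b37 was called lower at day 13. At day 9 it had 40.9, 20.6 and 19.4 CPM in Eif3m siRNA livers and 48.0, 38.0 and 59.1 CPM in control livers, with overlap (log2 fold change −0.84, SE 0.352, adjusted p = 0.15). At day 13 it fell to 1.12, 1.21 and 3.18 CPM in Eif3m siRNA livers, against 13.1, 21.1 and 9.31 CPM in control livers (log2 fold change −2.95, SE 0.524, adjusted p = 0.00237). The groups did not overlap at day 13, where the counts were 8 to 29 in Eif3m siRNA libraries and 86 to 148 in control libraries, but its change between the days, −2.11 (adjusted p = 0.106), was not called. Of its 50-base windows 81.7% were unique, and 15.2% were shared with Ugt2b5, which was more abundant and called higher. Ugt2b1 and Ugt2b34, with means of 357 and 473 CPM over the 12 libraries, were not called at either day, with log2 fold changes of −0.03 and 0.02 at day 9 and −0.31 and 0.11 at day 13.

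Ugt2a3, whose human counterpart glucuronidates bile acids, was the 1 tested Ugt2a gene and fell at both days. At day 9 it had 200.4, 162 and 201 CPM in Eif3m siRNA livers, against 260.0, 320.1 and 309 CPM in control livers (log2 fold change −0.66, SE 0.125, adjusted p = 0.00433). At day 13 it had 117, 114 and 109.9 CPM in Eif3m siRNA livers, against 208, 218 and 263 CPM in control livers (log2 fold change −1.01, SE 0.128, adjusted p = 9.78e-05). The groups were apart at both days, and the call held in every alternative tried. Ugt3a2, of the UGT3 family that uses sugars other than glucuronic acid, had 382, 328 and 406 CPM in Eif3m siRNA livers and 427, 483 and 469 CPM in control livers at day 9 (log2 fold change −0.31, SE 0.117, adjusted p = 0.106). It had 318, 261 and 262 CPM in Eif3m siRNA livers and 346, 356 and 388 CPM in control livers at day 13 (log2 fold change −0.37, SE 0.118, adjusted p = 0.034). The day 13 call was lost without day 13 control replicate 1, 2 or 3 or day 13 Eif3m siRNA replicate 2 or 3 (adjusted p from 0.0557 to 0.115) and in 4 of the 9 other settings (adjusted p from 0.0595 to 0.148), among them leaving out both libraries that lay apart (adjusted p = 0.148), although all Eif3m siRNA libraries lay below all controls at both days. Ugt3a1 was not called, at −0.38 and −0.05.

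Among the carboxylesterases, 4 of the 6 tested Ces1 genes fell at day 9 and all 6 at day 13 (medians −0.63 and −1.08). All Eif3m siRNA libraries were below all controls for each of these 6 genes at each day. The Ces1 genes, a row of neighbours on the minus strand of chromosome 8 between 93020214 and 93379725, summed to 4366 ± 511 CPM in Eif3m siRNA livers and 6305 ± 127 CPM in control livers at day 9. At day 13 their sum was 3177 ± 312 CPM in Eif3m siRNA livers and 6406 ± 609 CPM in control livers (SD, n = 3 each). Carboxylesterases as a whole summed to 80.1% of control at day 9 and 66.3% at day 13.

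Ces1c, the esterase secreted into mouse plasma, had the highest level per length of all members, at 1340.1 CPM per kilobase of exon in Eif3m siRNA livers and 1796 in control livers at day 9. At day 13 that level was 984 in Eif3m siRNA livers and 1913 in control livers. In CPM it had 2920.3, 2936 and 3483 in Eif3m siRNA livers, against 4041, 4175 and 4296 in control livers at day 9 (log2 fold change −0.42, SE 0.128, adjusted p = 0.0455). At day 13 it fell to 2588, 2186 and 2083 CPM in Eif3m siRNA livers, against 4298, 4933 and 4097 CPM in control livers (log2 fold change −0.96, SE 0.129, adjusted p = 0.000157). The day 9 call lay close to the threshold and was lost without any 1 of the day 9 controls, day 9 Eif3m siRNA replicate 1 or 2, day 13 control replicate 1 or day 13 Eif3m siRNA replicate 3 (adjusted p from 0.0551 to 0.151) and in 3 of the 9 other settings (adjusted p from 0.0563 to 0.0895), while the day 13 call held in every alternative.

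Ces1d, also known as triacylglycerol hydrolase, which mobilises stored triglyceride for lipoprotein secretion, fell furthest of the Ces1 genes. Its day 9 level was 299, 157 and 329 CPM in Eif3m siRNA livers, against 654, 721 and 729.7 CPM in control livers (log2 fold change −1.42, SE 0.221, adjusted p = 0.00142). On day 13 it had 201, 152 and 175 CPM in Eif3m siRNA livers, against 823, 871 and 673 CPM in control livers (log2 fold change −2.17, SE 0.227, adjusted p = 3.14e-05). Ces1g, a lipid hydrolase of the hepatocyte, had 182, 115 and 160.0 CPM in Eif3m siRNA livers and 323, 311 and 304 CPM in control livers at day 9 (log2 fold change −1.04, SE 0.136, adjusted p = 0.000479). At day 13 Ces1g had 114, 118 and 114 CPM in Eif3m siRNA livers and 317, 328 and 307 CPM in control livers (log2 fold change −1.46, SE 0.139, adjusted p = 1.19e-05). Both genes were apart between the groups at both days.

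Ces1e encodes egasyn, which holds β-glucuronidase in the endoplasmic reticulum. It had 133, 94.3 and 139 CPM in Eif3m siRNA livers and 252, 220.4 and 180.2 CPM in control livers at day 9 (log2 fold change −0.84, SE 0.176, adjusted p = 0.00754). Day 13 brought 68.1, 50.2 and 55.2 CPM in Eif3m siRNA livers and 147, 144 and 109 CPM in control livers at day 13 (log2 fold change −1.21, SE 0.183, adjusted p = 0.000387). The calls of Ces1d, Ces1e and Ces1g held in every alternative at both days.

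Ces1b and Ces1f changed least of the Ces1 genes. Ces1b had 333, 343 and 412 CPM in Eif3m siRNA livers and 459, 436 and 458 CPM in control livers at day 9 (log2 fold change −0.31, SE 0.121, adjusted p = 0.108). At day 13 Ces1b had 303, 228 and 275 CPM in Eif3m siRNA livers and 367, 379 and 343 CPM in control livers (log2 fold change −0.44, SE 0.122, adjusted p = 0.019). This call was lost without day 13 control replicate 1 (adjusted p = 0.054), control replicate 2 (adjusted p = 0.0614) or Eif3m siRNA replicate 2 (adjusted p = 0.0629), and in 1 of the 9 other settings (adjusted p = 0.068). Ces1f had 315, 327 and 421 CPM in Eif3m siRNA livers and 438, 466 and 451 CPM in control livers at day 9 (log2 fold change −0.35, SE 0.13, adjusted p = 0.0957). At day 13 Ces1f had 264, 259 and 299.7 CPM in Eif3m siRNA livers and 374, 396 and 312 CPM in control livers (log2 fold change −0.39, SE 0.131, adjusted p = 0.0423), a call lost without day 9 control replicate 2 or 3, day 13 control replicate 1 or 2 or any of the day 13 Eif3m siRNA replicates (adjusted p from 0.0512 to 0.146) and in 3 of the 9 other settings (adjusted p from 0.0533 to 0.0912). Ces1a and Ces1h were not tested, with at most 0.712 and 0.14 CPM in any library. Of the 50-base windows, 87.0% to 99.1% of those of the tested Ces1 genes were unique.

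Within Ces2, 3 of 5 tested genes fell at both days and Ces2g rose at both. Ces2a, a drug and lipid esterase known to respond to PXR and CAR in the mouse, had the highest mean level of the family. It had 142, 118 and 144 CPM in Eif3m siRNA livers, against 316, 319 and 315 CPM in control livers at day 9 (log2 fold change −1.23, SE 0.132, adjusted p = 0.000102). At day 13 the values were 109, 98.9 and 82.0 CPM in Eif3m siRNA livers, against 273, 295 and 226 CPM in control livers (log2 fold change −1.46, SE 0.134, adjusted p = 1.01e-05). Ces2c had 8.91, 5.25 and 7.04 CPM in Eif3m siRNA livers and 14.8, 12.1 and 12.5 CPM in control livers at day 9 (log2 fold change −0.90, SE 0.191, adjusted p = 0.00804). At day 13 Ces2c had 2.94, 2.04 and 2.19 CPM in Eif3m siRNA livers and 7.0, 4.27 and 5.63 CPM in control livers (log2 fold change −1.26, SE 0.278, adjusted p = 0.00478). Both were apart between the groups at both days, and their calls held in every alternative. For Ces2c 32.7% of the 50-base windows are shared with the pseudogene Ces2d-ps, and for Ces2a 16.3% with Gm7208, so how counts were split between each gene and its copy is uncertain.

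Ces2e fell by less. At day 9 it had 98.2, 82.0 and 94.4 CPM in Eif3m siRNA livers and 121, 110.0 and 118 CPM in control livers (log2 fold change −0.35, SE 0.105, adjusted p = 0.0459). Day 13 values were 86.2, 79.9 and 95.1 CPM in Eif3m siRNA livers and 119, 107 and 108 CPM in control livers (log2 fold change −0.35, SE 0.108, adjusted p = 0.0291). No library overlapped, but the day 9 call was lost in 10 of the 12 fits that left out a library, all but those without day 13 control replicate 3 and without day 13 Eif3m siRNA replicate 2 (adjusted p from 0.0509 to 0.179), and in 4 of the 9 other settings (adjusted p from 0.0547 to 0.0952). The day 13 call was lost without day 13 control replicate 1 (adjusted p = 0.103), Eif3m siRNA replicate 1 (adjusted p = 0.0722) or Eif3m siRNA replicate 2 (adjusted p = 0.0854), and in 4 of the 9 other settings (adjusted p from 0.054 to 0.0982), among them leaving out both libraries that lay apart (adjusted p = 0.0652).

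Ces2g was the member called higher at both days. It had 63.3, 65.9 and 60.0 CPM in Eif3m siRNA livers, against 53.3, 47.1 and 48.8 CPM in control livers at day 9 (log2 fold change 0.34, SE 0.0907, adjusted p = 0.0252). At day 13 it rose to 87.6, 88.9 and 88.9 CPM in Eif3m siRNA livers, against 42.5, 45.2 and 43.3 CPM in control livers (log2 fold change 1.02, SE 0.0949, adjusted p = 1.07e-05). The groups were apart at both days, and the day 13 effect exceeded the day 9 effect by 0.68 (adjusted p = 0.0189). The day 9 call was lost without day 9 control replicate 2 or 3 or day 9 Eif3m siRNA replicate 1 or 2 (adjusted p from 0.0832 to 0.0992) and in 3 of the 9 other settings (adjusted p from 0.0666 to 0.115). The difference between the days was lost without day 9 Eif3m siRNA replicate 1 (adjusted p = 0.0534) or 3 (adjusted p = 0.0549), without day 13 Eif3m siRNA replicate 3 (adjusted p = 0.0558) and in 2 of the 8 other settings (adjusted p from 0.0542 to 0.0816). Of its 50-base windows 96.9% were unique.

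Ces3a and Ces3b, adjoining carboxylesterase genes, had fold changes of opposite sign. Ces3a had 1869.6, 1648 and 1757 CPM in Eif3m siRNA livers, all above the 1289.7, 1211 and 952 CPM of control livers at day 9, without passing the test (log2 fold change 0.61, SE 0.237, adjusted p = 0.112). By day 13 it stood at 1905, 1328 and 1715 CPM in Eif3m siRNA livers, above the 842, 1212 and 535 CPM of control livers (log2 fold change 0.93, SE 0.239, adjusted p = 0.0125), and this call held in every alternative. Ces3b, by contrast, had 374, 216 and 247 CPM in Eif3m siRNA livers and 449.6, 398 and 378 CPM in control livers at day 9. At day 13 Ces3b had 131, 112 and 166 CPM in Eif3m siRNA livers and 217, 244 and 163 CPM in control livers. Its fold changes of −0.55 (adjusted p = 0.101) and −0.61 (adjusted p = 0.051) did not pass. Of the windows of Ces3a 25.6% are shared with Ces3b, and of those of Ces3b 26.2% with Ces3a. Their sum was 2037 ± 192 CPM in Eif3m siRNA livers and 1559 ± 209 CPM in control livers at day 9. Summed at day 13, they had 1786 ± 309 CPM in Eif3m siRNA livers and 1071 ± 379 CPM in control livers (SD, n = 3 each).

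**Figure D3:**
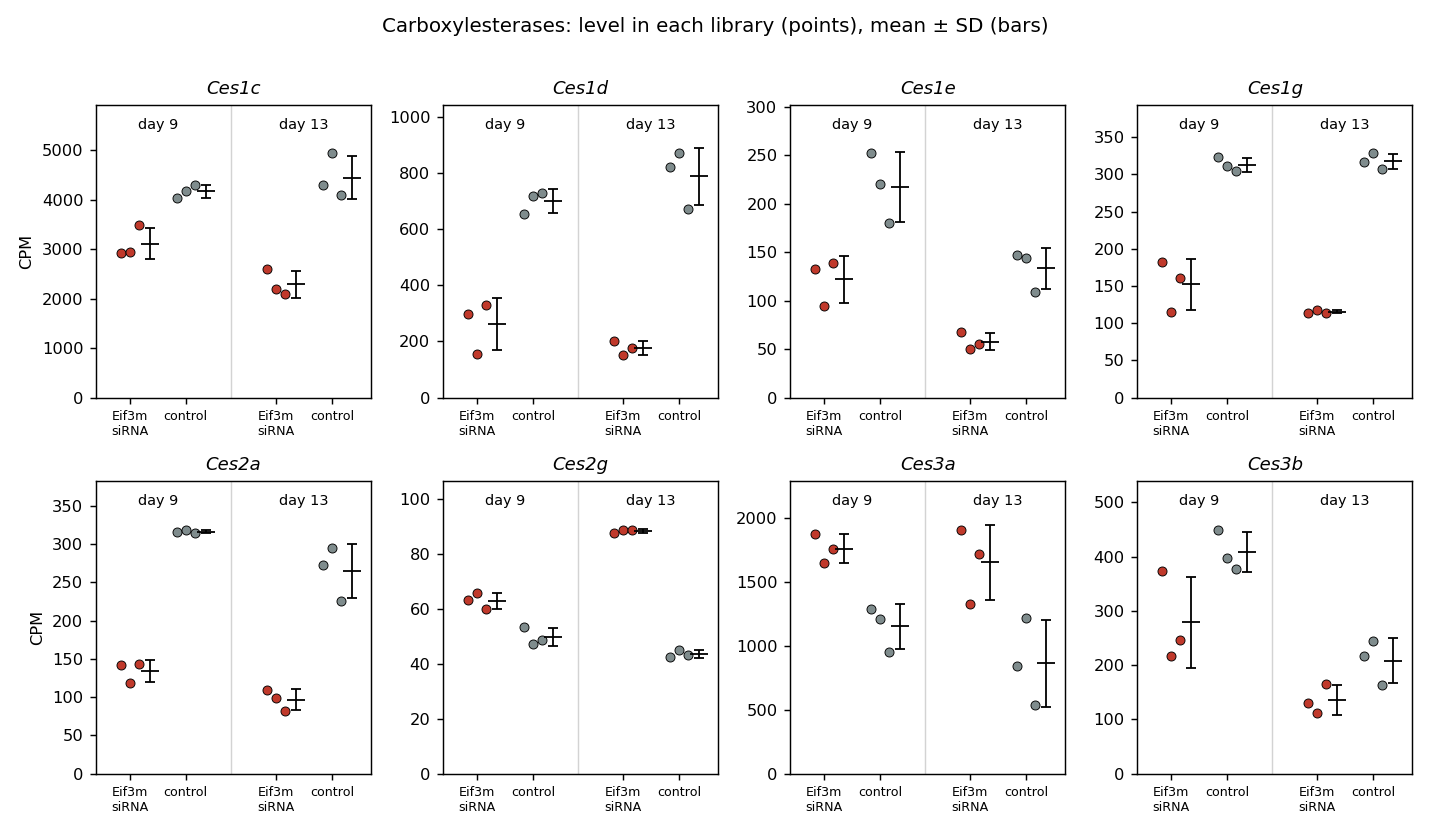
CPM (y axis, from 0) of 8 carboxylesterase genes in each library of the 4 groups, with Eif3m siRNA left of control within each day; points are libraries and bars the mean ± SD. Ces1c, Ces1d, Ces1e, Ces1g and Ces2a are below every control at both days, Ces2g and Ces3a are above every control at both days, and Ces3b overlaps at day 13.

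Sulfotransferases were lower where they changed, with 1 exception. Of 16 tested Sult genes 3 fell and none rose at day 9, and 5 fell and 1 rose at day 13 (medians −0.39 and −0.38). All 21 Sult genes summed to 1804 ± 270.4 CPM in Eif3m siRNA livers and 2869 ± 543 CPM in control livers at day 9. Their day 13 sum was 1061 ± 108 CPM in Eif3m siRNA livers and 2259 ± 488 CPM in control livers (SD, n = 3 each). Within these sums the 2 Sult3 genes held 574 ± 193 CPM in Eif3m siRNA livers and 1342 ± 419 CPM in control livers at day 9. They held 94.3 ± 24.1 CPM in Eif3m siRNA livers and 1056 ± 415 CPM in control livers at day 13 (SD, n = 3 each). The Sult2 genes summed to 750.4 ± 31.5 CPM in Eif3m siRNA livers and 891 ± 77.5 CPM in control livers at day 9. That sum was 526 ± 54.7 CPM in Eif3m siRNA livers and 539 ± 78.7 CPM in control livers at day 13.

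Sult3a1, an amine sulfotransferase known in mouse liver as a female-biased gene, had the largest fold change of any member at day 13. At day 9 it had 323, 469.7 and 627 CPM in Eif3m siRNA livers, against 820.0, 1095 and 1472 CPM in control livers (log2 fold change −1.25, SE 0.323, adjusted p = 0.027). At day 13 it fell to 52.4, 82.5 and 88.4 CPM in Eif3m siRNA livers, against 720.2, 715 and 1299.7 CPM in control livers (log2 fold change −3.61, SE 0.355, adjusted p = 4.68e-05). The groups were apart at both days, at 41.9% of the control mean at day 9 and 8.17% at day 13, and the effect differed between the days by −2.36 (adjusted p = 0.0257). The day 9 call was lost without day 9 control replicate 2 (adjusted p = 0.0571) or 3 (adjusted p = 0.0889) or day 9 Eif3m siRNA replicate 1 (adjusted p = 0.0773) or 2 (adjusted p = 0.0815), and in 1 of the 9 other settings (adjusted p = 0.0952). The difference between the days was lost without day 9 control replicate 2 (adjusted p = 0.0566), without day 13 Eif3m siRNA replicate 1 (adjusted p = 0.0536) and in 2 of the 8 other settings (adjusted p from 0.0656 to 0.081), among them leaving out both libraries that lay apart (adjusted p = 0.0656). The day 13 call held in every alternative.

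Sult3a2, the neighbouring gene on the opposite strand of chromosome 10, also fell at day 13. It had 56.8, 107 and 138 CPM in Eif3m siRNA livers and 133, 193 and 313 CPM in control livers at day 9, which overlapped (log2 fold change −1.08, SE 0.461, adjusted p = 0.165). Its day 13 values were 14.0, 24.8 and 20.7 CPM in Eif3m siRNA livers, against 108, 90.1 and 236 CPM in control livers (log2 fold change −2.86, SE 0.512, adjusted p = 0.00327), and the day 13 call held in every alternative. The windows of the 2 genes are 93.8% (Sult3a1) and 92.3% (Sult3a2) unique.

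The Sult1 genes, which sulfate phenols, catecholamines and thyroid hormones, held 2 falls at day 9 (Sult1b1 and Sult1c2) and 3 at day 13 (Sult1a1, Sult1c2 and Sult1d1). Sult1a1, the main phenol sulfotransferase, had 236, 317 and 323 CPM in Eif3m siRNA livers and 385, 322 and 435 CPM in control livers at day 9, with overlap (log2 fold change −0.38, SE 0.169, adjusted p = 0.163). At day 13 Sult1a1 had 415, 302 and 281 CPM in Eif3m siRNA livers, below the 548, 469 and 456 CPM of control livers (log2 fold change −0.56, SE 0.17, adjusted p = 0.0282). Its call was lost without day 13 control replicate 1 (adjusted p = 0.105), without Eif3m siRNA replicate 2 (adjusted p = 0.0749) or 3 (adjusted p = 0.117), and in 2 of the 9 other settings (adjusted p from 0.0525 to 0.0822), among them leaving out both libraries that lay apart (adjusted p = 0.0822). An exon of Sgf29 on the other strand overlaps 4.05% of the Sult1a1 exon bases.

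Sult1d1, which sulfates catecholamines in the mouse, had 123, 114 and 134 CPM in Eif3m siRNA livers and 128, 186 and 173 CPM in control livers at day 9, with overlap (log2 fold change −0.39, SE 0.182, adjusted p = 0.18). At day 13 Sult1d1 had 78.0, 95.6 and 63.3 CPM in Eif3m siRNA livers, below the 106, 126 and 163 CPM of control livers (log2 fold change −0.74, SE 0.187, adjusted p = 0.0114). This call was lost in 1 alternative, without day 13 Eif3m siRNA replicate 3 (adjusted p = 0.0535). Sult1b1, which sulfates thyroid hormone, was called lower at day 9, with 24.8, 20.5 and 26.6 CPM in Eif3m siRNA livers and 34.0, 31.5 and 35.5 CPM in control livers (log2 fold change −0.49, SE 0.138, adjusted p = 0.033). At day 13 it had 15.8, 12.1 and 13.4 CPM in Eif3m siRNA livers and 17.9, 13.0 and 17.9 CPM in control livers, which overlapped (log2 fold change −0.25, SE 0.16, adjusted p = 0.284), and the difference between the days was 0.24 (adjusted p = 0.598). The day 9 call of Sult1b1 was lost without any 1 of the day 9 controls or day 9 Eif3m siRNA replicate 1 or 2 (adjusted p from 0.0588 to 0.139) and in 1 of the 9 other settings (adjusted p = 0.0584).

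Sult1c2 was called lower at both days at a low level. It had 7.96, 11.3 and 11.4 CPM in Eif3m siRNA livers and 13.5, 15.1 and 14.8 CPM in control livers at day 9 (log2 fold change −0.50, SE 0.137, adjusted p = 0.0285). The day 13 levels were 5.87, 5.38 and 5.15 CPM in Eif3m siRNA livers and 8.61, 7.84 and 8.56 CPM in control livers at day 13 (log2 fold change −0.61, SE 0.175, adjusted p = 0.0207). Libraries did not overlap. The day 9 call was lost without day 9 control replicate 2 (adjusted p = 0.0921) or 3 (adjusted p = 0.0875) or Eif3m siRNA replicate 1 (adjusted p = 0.0984). The day 13 call was lost without day 13 control replicate 1 (adjusted p = 0.0599), without Eif3m siRNA replicate 3 (adjusted p = 0.071) and in 3 of the 9 other settings (adjusted p from 0.051 to 0.0869), among them leaving out both libraries that lay apart (adjusted p = 0.0842). Sult1e1, the estrogen sulfotransferase, was near the detection limit, with at most 1.68 CPM in any library, and was not called.

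The Sult2a genes, which sulfate bile acids and hydroxysteroids, held the 1 rise. Sult2a5 had 46.5, 62.0 and 50.3 CPM in Eif3m siRNA livers and 38.4, 35.5 and 42.4 CPM in control livers at day 9, apart but not called (log2 fold change 0.45, SE 0.169, adjusted p = 0.0992). On day 13 it had 55.7, 49.1 and 38.9 CPM in Eif3m siRNA livers and 31.0, 25.8 and 41.0 CPM in control livers, which overlapped (log2 fold change 0.55, SE 0.18, adjusted p = 0.0403). The call was lost without day 9 Eif3m siRNA replicate 3, day 13 control replicate 1 or 2 or day 13 Eif3m siRNA replicate 1 or 2 (adjusted p from 0.0519 to 0.146) and in 4 of the 9 other settings (adjusted p from 0.0526 to 0.0916), and 22.2% of its windows are shared with Sult2a2. None of the 7 other tested Sult2a genes was called at either day. Their day 9 fold changes ran from −0.83 (Sult2a1) to −0.03 (Sult2a6), and their day 13 fold changes from −1.22 (Sult2a1) to 0.74 (Sult2a7). Sult2a1 and Sult2a2 share 41.3% of the windows of Sult2a2, and single Sult2a values are uncertain. Sult2a8, which sulfates bile acids in mouse liver and had the highest mean of the group, had 448 ± 66.4 CPM in Eif3m siRNA livers and 565 ± 35.4 CPM in control livers at day 9. At day 13 Sult2a8 had 252 ± 26.6 CPM in Eif3m siRNA livers and 284 ± 36.5 CPM in control livers at day 13 (SD, n = 3 each), and it passed at neither day (adjusted p = 0.127 and 0.394).

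**Figure D4:**
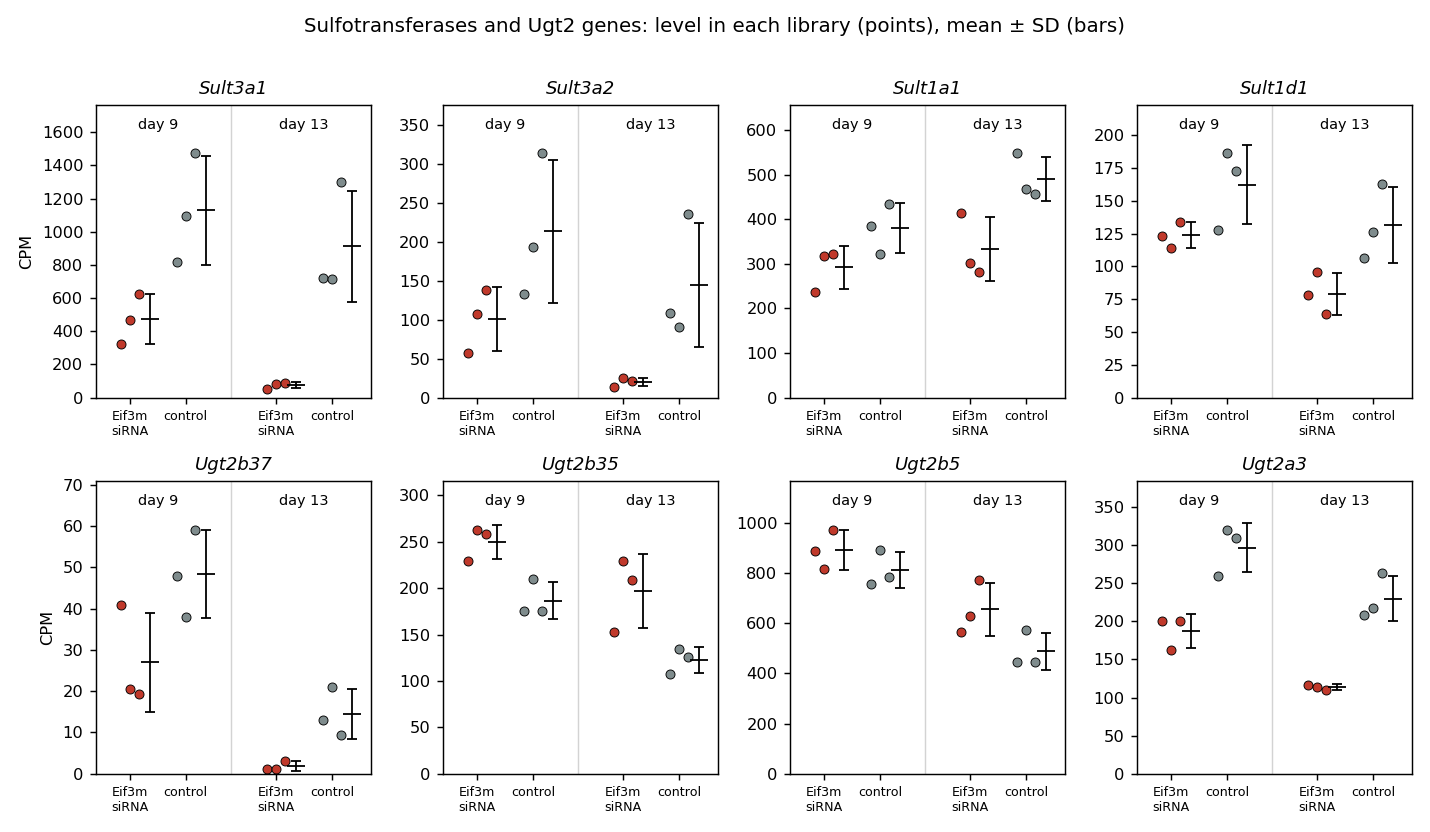
CPM (y axis, from 0) of 4 sulfotransferase and 4 Ugt2 genes in each library of the 4 groups, with Eif3m siRNA left of control within each day; points are libraries and bars the mean ± SD. Sult3a1 and Ugt2a3 are below every control at both days, Ugt2b37 is below every control at day 13, and Ugt2b35 is above every control at both days.

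Of the 3 cofactor genes, Ugdh and Papss2 fell at day 9, and none was called at day 13 by edgeR, DESeq2 or limma, where 2 had an unadjusted p under 0.05. Ugdh, which oxidises UDP-glucose to the UDP-glucuronate that UGTs use, had 39.9, 47.6 and 54.9 CPM in Eif3m siRNA livers, against 79.8, 72.5 and 86.9 CPM in control livers at day 9 (log2 fold change −0.75, SE 0.157, adjusted p = 0.00742), and the call held in every alternative. At day 13 the values were 49.8, 63.1 and 54.1 CPM in Eif3m siRNA livers and 61.0, 65.4 and 89.7 CPM in control livers, with overlap (log2 fold change −0.37, SE 0.162, adjusted p = 0.115). Between the days its effect differed by 0.38 (adjusted p = 0.407).

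Papss2, a PAPS synthase, had 260.0, 231 and 271 CPM in Eif3m siRNA livers, below the 312, 345 and 398 CPM of control livers at day 9 (log2 fold change −0.47, SE 0.145, adjusted p = 0.0483). Day 13 values were 186, 245 and 206 CPM in Eif3m siRNA livers and 247, 247 and 332 CPM in control livers, which were apart but not called (log2 fold change −0.38, SE 0.147, adjusted p = 0.0795). The day 9 call was lost in 9 of the 12 fits that left out a library, those without any 1 of the day 9 libraries, day 13 control replicate 1 or 2 or day 13 Eif3m siRNA replicate 3 (adjusted p from 0.055 to 0.184), and in 2 of the 9 other settings (adjusted p from 0.0634 to 0.0773). Papss1 had 12.9, 12.3 and 11.0 CPM in Eif3m siRNA livers and 14.0, 12.2 and 16.3 CPM in control livers at day 9. At day 13 Papss1 had 18.9, 14.7 and 18.3 CPM in Eif3m siRNA livers and 11.0, 19.0 and 14.3 CPM in control livers. Its groups overlapped at both days and it was not called (log2 fold change −0.23 and 0.23). Over all genes tested 12.8% were called at day 9 and 23.7% at day 13. Of 13 other genes of cofactor supply and transport, 4 fell at day 9 and none rose, and 2 fell and 1 rose at day 13 (medians −0.24 and −0.24). The falls included Slc35b2, which carries PAPS into the Golgi, at −0.52 (adjusted p = 0.0291) and −0.72 (adjusted p = 0.00485), and Suox, sulfite oxidase, which makes sulfate, at −0.65 (adjusted p = 0.00177) and −0.67 (adjusted p = 0.000633). The rise was Slc35d1, a carrier of UDP-glucuronate into the endoplasmic reticulum, at 0.60 (adjusted p = 0.00293) on day 13.

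**Figure D5:**
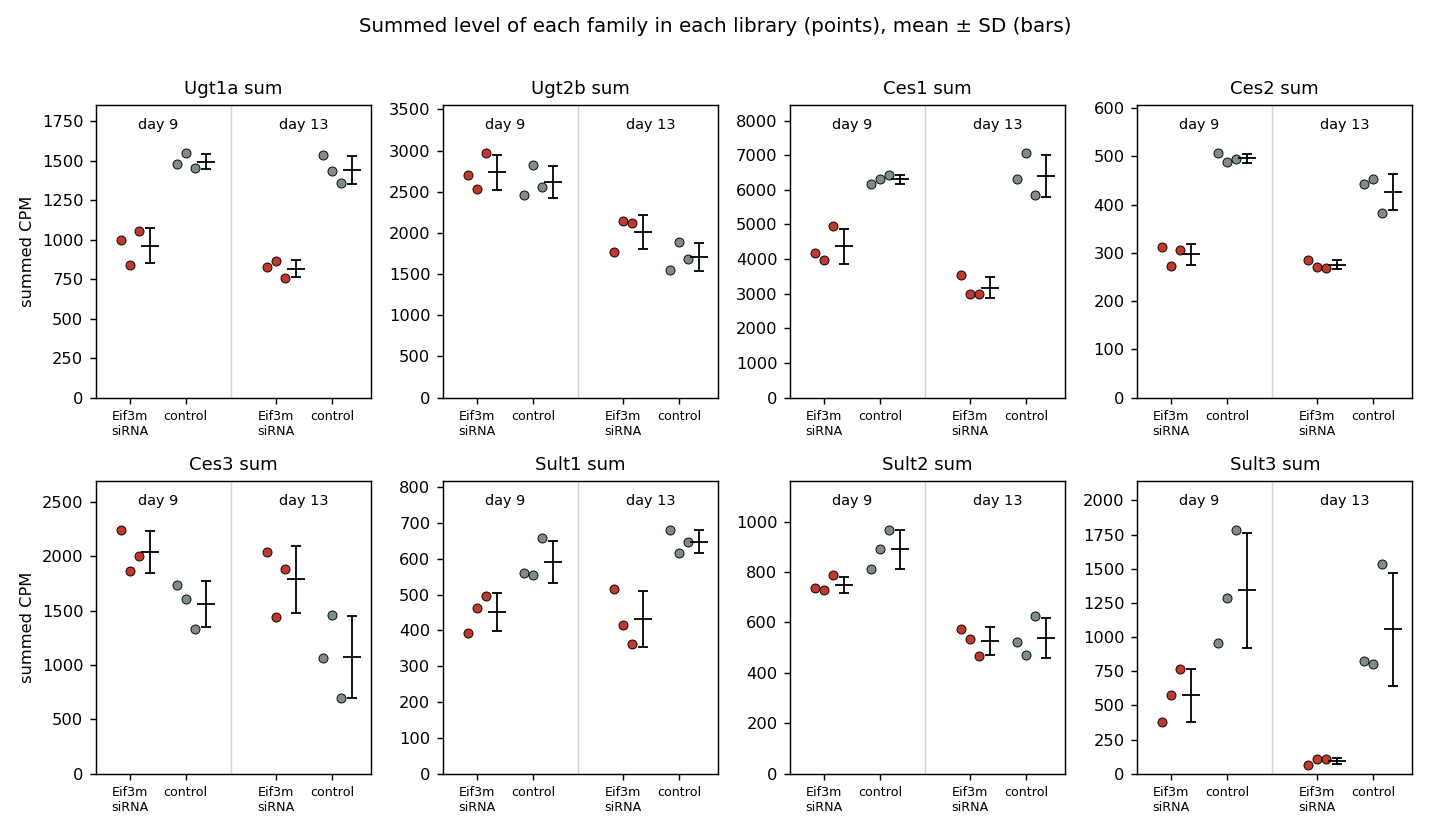
Summed CPM (y axis, from 0) of 8 groups of member genes in each library of the 4 groups, with Eif3m siRNA left of control within each day; points are libraries and bars the mean ± SD. The Ugt1a, Ces1, Ces2, Sult1 and Sult3 sums are below every control at both days. At day 9 the Sult2 sum is below every control and the Ces3 sum above every control, and both overlap at day 13. The Ugt2b sums overlap at both days.

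Genes that act with the members were read from lists, as counts and medians. The lists were chosen with earlier results of these data known, so their counts are a description and not independent support. Over all genes tested 6.84% fell and 5.94% rose at day 9, and 10.9% fell and 12.8% rose at day 13. The counts of several lists lay near these shares. Whether a call held with a library left out or in the other settings was read for members only, so calls of list genes were not checked this way. Of 22 targets of CAR and PXR outside the families, 7 fell and none rose at day 9, and 12 fell and 1 rose at day 13 (medians −0.44 and −0.47). Cyp2b10, the standard CAR target in mouse liver, had 7.59 CPM in Eif3m siRNA livers and 39.1 CPM in control livers at day 9. At day 13 Cyp2b10 had 5.2 CPM in Eif3m siRNA livers and 30.3 CPM in control livers, and its fold changes were −2.36 (adjusted p = 1.43e-05) and −2.55 (adjusted p = 6.79e-06). The receptor CAR itself, Nr1i3, had 91.2, 66.2 and 82.6 CPM in Eif3m siRNA livers and 256, 131 and 117 CPM in control livers at day 9 (log2 fold change −1.07, SE 0.278, adjusted p = 0.0273). At day 13 Nr1i3 had 64.5, 48.5 and 59.1 CPM in Eif3m siRNA livers and 162, 109 and 105 CPM in control livers (log2 fold change −1.13, SE 0.286, adjusted p = 0.0143). PXR, Nr1i2, had a fold change of 0.20 (adjusted p = 0.297) at day 9 and was called higher at day 13, at 0.45 (adjusted p = 0.0192). Among all 19 listed receptors and factors 1 fell and none rose at day 9, and 3 fell and 2 rose at day 13 (medians −0.05 and 0.00). A link between these receptors and the members was not tested.

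Beside the next counts, 12.8% of all genes tested were called at day 9 and 23.7% at day 13. Carriers that move glucuronides and sulfates out of or into hepatocytes were called in part. Of 15, 4 fell and none rose at day 9, and 6 fell and 1 rose at day 13 (medians −0.26 and −0.51). Abcc3, which exports glucuronides to blood, had 120.0 ± 21.9 CPM in Eif3m siRNA livers and 253 ± 45.5 CPM in control livers at day 9. At day 13 Abcc3 had 68.0 ± 17.8 CPM in Eif3m siRNA livers and 189.9 ± 36.3 CPM in control livers at day 13 (SD, n = 3 each). Its fold changes were −1.07 (adjusted p = 0.00496) and −1.48 (adjusted p = 0.000313). Abcc2, which exports bilirubin glucuronides to bile, had 419 ± 28.7 CPM in Eif3m siRNA livers and 341 ± 27.4 CPM in control livers at day 9. At day 13 Abcc2 had 272 ± 80.0 CPM in Eif3m siRNA livers and 221 ± 54.3 CPM in control livers, and it passed at neither day, with fold changes of 0.30 (adjusted p = 0.344) and 0.30 (adjusted p = 0.295). The uptake carriers Slco2b1 and Slc10a1 fell at both days, at −1.57 and −1.84 and at −0.62 and −1.12. Of 7 genes that remove the conjugates again, 1 fell at day 9, and 3 fell and 1 rose at day 13 (medians −0.18 and −0.35). Gusb, β-glucuronidase, was among the falls at day 13 (log2 fold change −0.77, adjusted p = 0.000255).

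Neighbouring pathways of conjugation and ester cleavage are given beside the 12.8% of all genes called at day 9 and 23.7% at day 13. Of 13 genes of methyl, acetyl and glycine conjugation, 5 fell and none rose at day 9, and 5 fell and 1 rose at day 13 (medians −0.47 and −0.35). Inmt, an amine methyltransferase, had fold changes of −1.39 (adjusted p = 0.00579) and −2.97 (adjusted p = 2.8e-05), and Slc27a5 and Baat, which activate bile acids and join them to taurine and glycine, fell at both days, Slc27a5 at −0.70 (adjusted p = 0.00362) and −0.79 (adjusted p = 0.00067) and Baat at −0.38 (adjusted p = 0.0325) and −0.60 (adjusted p = 0.00129). Of 20 other lipases and esterases tested, 7 fell and 2 rose at day 9, and 7 fell and 3 rose at day 13 (medians −0.22 and −0.30). Ces4a, a carboxylesterase outside the named families, rose at both days, at 1.46 (adjusted p = 0.0387) and 3.70 (adjusted p = 0.000815). Its means were 2.71 CPM in Eif3m siRNA livers and 0.994 CPM in control livers at day 9, and 7.7 CPM in Eif3m siRNA livers and 0.578 CPM in control livers at day 13.

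Sex-biased liver genes were also listed. Of 23 such genes outside the families, 3 fell and none rose at day 9, and 9 fell and 3 rose at day 13 (medians −0.25 and −0.24). The day 9 count was near the 12.8% of all genes called, and at day 13 23.7% of all genes were called. The list holds both female- and male-biased genes, and its counts were not split by the direction of the bias. The female-biased A1bg had a fold change of −0.68 (adjusted p = 0.281) at day 9 and −5.67 (adjusted p = 2.13e-05) at day 13. Hsd3b5, a male-biased gene, rose at day 13 (log2 fold change 2.43, adjusted p = 0.000506). A1bg and Hsd3b5 are single genes of this list and do not stand for the rest of it. Bcl6, a repressor of female-biased genes, had 22.0, 6.77 and 20.9 CPM in Eif3m siRNA livers and 27.5, 12.4 and 6.88 CPM in control livers at day 9, with overlap (log2 fold change 0.09, SE 0.533, adjusted p = 0.939). At day 13 Bcl6 had 41.4, 47.5 and 50.2 CPM in Eif3m siRNA livers, above the 2.29, 2.56 and 5.42 CPM of control livers (log2 fold change 3.72, SE 0.692, adjusted p = 0.00422). Cux2, a female-specific factor of mouse liver, had 30.0, 8.77 and 19.4 CPM in Eif3m siRNA livers and 45.4, 29.3 and 43.0 CPM in control livers at day 9, with overlap (log2 fold change −1.02, SE 0.392, adjusted p = 0.123). At day 13 Cux2 had 0.559, 0.835 and 1.2 CPM in Eif3m siRNA livers, below the 18.0, 12.3 and 26.6 CPM of control livers (log2 fold change −4.43, SE 0.642, adjusted p = 0.000814). A relation of these genes to Sult3a1 was not tested.

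Markers of the cells in the tissue are given beside the 12.8% of all genes called at day 9 and 23.7% at day 13. Of 10 general hepatocyte markers 1 rose and 1 fell at day 9, and 4 rose and 2 fell at day 13 (medians 0.14 and −0.01). They summed to 96435 to 102724 CPM in Eif3m siRNA livers and 116397 to 123682 CPM in control livers at day 9. Their sums at day 13 were 106934 to 163719.8 CPM in Eif3m siRNA livers and 174297 to 197929.6 CPM in control livers. A sum is set mostly by its most abundant transcripts, so these sums do not describe the typical marker. Of 11 pericentral hepatocyte markers 2 fell at day 9 and 4 at day 13 (medians −0.37 and −0.53). Their day 9 sums were 6261 to 8538 CPM in Eif3m siRNA livers and 9095 to 11090.2 CPM in control livers. Their day 13 sums were 4885 to 7215 CPM in Eif3m siRNA livers and 9378 to 10473 CPM in control livers. Of 10 periportal markers 1 rose and 2 fell at day 9 and 2 rose at day 13 (medians −0.01 and 0.04). Periportal sums at day 9 were 10704 to 13224 CPM in Eif3m siRNA livers and 10292 to 12099 CPM in control livers. At day 13 the periportal sums were 13161 to 14881 CPM in Eif3m siRNA livers, above the 10404 to 12395 CPM of control livers. Of 10 Kupffer cell markers 4 fell at day 9 and 8 at day 13 (medians −0.46 and −1.06). Their day 9 sums were 228 to 284 CPM in Eif3m siRNA livers and 327 to 398 CPM in control livers. The day 13 Kupffer sums were 126 to 206 CPM in Eif3m siRNA livers and 296 to 384 CPM in control livers. Of 10 monocyte and macrophage markers 3 rose at day 9 and 4 fell at day 13 (medians 0.52 and −0.68). Erythroid markers fell in 4 of 6 cases at day 13 (medians −0.43 at day 9 and −1.46 at day 13). Their day 13 sums were 705 to 1852 CPM in Eif3m siRNA livers and 2107 to 5966 CPM in control livers. Sis, Lct, Cdx2 and Alpi of the 7 enterocyte markers and Slc12a1, Kap and Aqp2 of the 6 kidney tubule markers were at 0 in every library. Of 6 tested cholangiocyte markers 1 rose at day 13, of 8 endothelial markers 1 rose at day 9 and 2 fell at day 13, and of 8 stellate cell markers 1 rose at day 9 and 3 fell at day 13. None of the 2 tested pancreatic acinar markers was called. The part of these cell types in the members' values was not tested.

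The remaining members had little transcript. The 12 untested members, Ces1a, Ces1h, Ces2b, Ces2f, Sult1c1, Sult2b1, Sult4a1, Sult6b1, Sult6b2, Ugt1a2, Ugt2a1 and Ugt2a2, had at most 0.712 CPM and 15 counts in any library, and Sult1c1 and Ugt2a1 had no counts at all. Of the tested members, Ces2h, Sult1e1, Sult2a7, Ugt1a8 and Ugt2b38 were under the filter level in at least 1 library and none of them was called. Sult5a1 was tested with 29.2 ± 2.6 CPM in Eif3m siRNA livers and 44.3 ± 6.21 CPM in control livers at day 9, and 9.29 ± 2.47 CPM in Eif3m siRNA livers and 15.1 ± 5.7 CPM in control livers at day 13 (SD, n = 3 each), and passed at neither, with fold changes of −0.60 (adjusted p = 0.0874) and −0.70 (adjusted p = 0.0668).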

How the data were processed

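Liver mRNA of 12 libraries in 4 groups was measured, and the labels' description field gave each group. Values deposited by the authors are estimated counts, 1 row for each Ensembl gene. Per the submitters' processing notes, STAR 2.5.3a, RSEM 1.3.0 and mm10 were used. Not given in the sources used here are their roles, the annotation release and the strand setting. All were whole numbers, taken as rounded RSEM estimates. Symbols, positions and shared 50-base windows came from GENCODE M21 on the same build, which left 224 genes with 0.0199% of the counts unmatched.

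Counts were filtered with filterByExpr (minimum count 10), leaving 14248 genes with at least 99.93% of each library's counts, scaled by TMM, and tested with edgeR 4.0.16 (quasi-likelihood, robust, two-sided, 4 groups, 8 residual degrees of freedom, Benjamini-Hochberg over all genes tested). CPM used the TMM factors, the SE is the fold change over the root of the F statistic, and 95% intervals use t quantiles of the test's degrees of freedom. The steps were tested on simulated data. Alternatives were DESeq2 1.42.0 size factors, upper-quartile factors, no filter, DESeq2, limma-voom (limma 3.58.1), a replicate block, each day alone, thinned day 9 counts, and leaving out each library; leaving out both day 13 libraries apart on the third component was added after seeing the data. R 4.3.3, Python 3.11.15 and matplotlib 3.10.9 were used. None of the 12 pairs of libraries within a group agreed within sampling noise.

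Called members with a mean of at least 5 CPM, the most abundant member of each family and the cofactor genes are given by library; from the lists only called genes and Nr1i2, Nr1i3, Abcc2 and Abcc3 are named. Members and lists were chosen with earlier results of these data known.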

Additional observations from a re-analysis of the deposited data

Results flagged for a closer look

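The siRNA effect of 3 members differed between the days by the test of the difference itself. For Ugt1a6a the day 13 effect minus the day 9 effect was 0.99 (adjusted p = 0.0385), with day effects of −0.13 at day 9 and 0.86 at day 13, and all 3 Eif3m siRNA libraries above all controls at day 13 alone. For Ces2g it was 0.68 (adjusted p = 0.0189), with 0.34 at day 9 and 1.02 at day 13, higher in 3 of 3 Eif3m siRNA libraries at each day. For Sult3a1 it was −2.36 (adjusted p = 0.0257), with −1.25 at day 9 and −3.61 at day 13, lower in 3 of 3 Eif3m siRNA libraries at each day. Each of the 3 lost its call in at least 2 of the fits that left out a library. Depth differed between the days, and its part in these differences was checked only by thinning the day 9 counts, where Ces2g no longer passed (adjusted p = 0.0542).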

How the results depend on the processing

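No fold change of a called member reversed in any alternative. Of 16 members called at day 9, 9 were called in every alternative, of 27 at day 13, 16 were, and of 3 between the days, none was. With 1 library left out, members called were 9 to 19 at day 9, 18 to 27 at day 13 and 1 to 5 between the days. Of all genes, such fits called 884 to 2250 at day 9, 2299 to 3288 at day 13 and 130 to 508 between the days. Other settings moved the counts as follows. Members called were 17 at day 13 with each day alone, and 7 (DESeq2) and 1 (replicate block) between the days. Of all genes, limma-voom called 2749, each day alone 3412, the thinned counts 1199 and leaving out both day 13 libraries that lay apart 3050 at day 9, each day alone called 2014 at day 13, and DESeq2 991, the replicate block 117 and the thinned counts 220 between the days. These compare with 1821, 3377 and 364 of all genes in the fit reported. Upper-quartile factors changed the day 13 split of all genes to 1574 higher and 1808 lower, against 1824 and 1553 with TMM, and that of the members to 4 and 22, against 7 and 20. The cause of these shifts was not tested, except that thinning and leaving out libraries lower the number of counts.

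Same-numbered libraries of the 2 groups did not deviate together (correlations −0.158 to 0.158 at day 9 and −0.0671 to 0.0811 at day 13). With 3 libraries in each group such correlations cannot exclude a shared animal or batch, and the labels do not state what the replicate number marks. The replicate block called 14 members at day 9 and 21 at day 13 (of all genes 1216 and 2681), and Ugt1a6a no longer passed between the days (adjusted p = 0.0876). Depth was lower at day 13, which limits members of low count most, such as Ugt2b37 and Ugt1a5.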
